A study of Caenorhabditis elegans with 2 samples.

Results

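Among 1005 peaks of the transcription factor ATFS-1 in mitochondrially stressed worms, 9 (0.896%) carried the name of a translation factor or of an aminoacyl-tRNA synthetase. They were chosen by name alone, as peaks labelled with a gene of the eef-, eif-, ife-, iff- or ifg- families or with an older synthetase name made of a letter and rs-. Of these 9 peaks, 7 were named for synthetases (crs-1, nrs-1, vrs-1, grs-1, ers-3, srs-2 and irs-1) and 2 for factors (iff-2 and ife-3). No peak was named with an eef-, eif- or ifg- symbol, although elongation and initiation factor genes did appear in the list under other names, as described further on.

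The data come from chromatin immunoprecipitation followed by sequencing (ChIP-seq) on lysates of whole wild-type Caenorhabditis elegans. All animals were grown from eggs on spg-7(RNAi) food, which silences a mitochondrial protease, and were harvested as L4 larvae after about 48 h, so no unstressed worms were compared. An ATFS-1 antibody library was set against a no-antibody library of the same kind of lysate, with 1 library per condition, so no value below has a replicate check and no test between conditions was made. The authors' caller worked on 10992796 filtered tags of the antibody library and 10583049 of the control. The file headers place the libraries in different sequencing projects, so project and antibody cannot be told apart. Whole worms mix all tissues, so a peak in few cells and weak binding in many cannot be told apart.

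Aminoacyl-tRNA synthetases join each amino acid to its transfer RNA and so supply the ribosome. They fall into a pair of structurally unrelated groups, class I and class II. Initiation factors bring the ribosome to the capped end of an mRNA and to its start codon, and elongation factors deliver charged transfer RNAs and move the ribosome along. In mammals, genes of many cytosolic synthetases are targets of ATF4, another bZIP factor, in amino acid and mitochondrial stress. ATFS-1 is the bZIP factor of the mitochondrial unfolded protein response in worms.

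The 9 peaks were of ordinary size for the list. Fold enrichment is the caller's own ratio of antibody signal to the level that it predicted from the control. Over the 9 peaks it ran from 2.64 to 5.16 with a median of 3.53, beside a median of 3.26 (2 to 13.08) over all 1005 peaks. Of the 9, 6 lay at or above the median fold of all peaks and 6 lay within the middle range between the quartiles, 2.75 and 4.04. Only the iff-2 peak reached 5-fold (11.1% of the 9), beside 13.6% of all peaks, and 2 reached 4-fold (iff-2 and nrs-1), beside 26.4%. Antibody tags per peak ran from 193 to 483 (median 318, all peaks 325), and 8 of the 9 lay between the quartiles of 234 and 511. In sum the 9 peaks held 2920 tags, 0.0266% of the filtered antibody library.

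**Figure D1:**
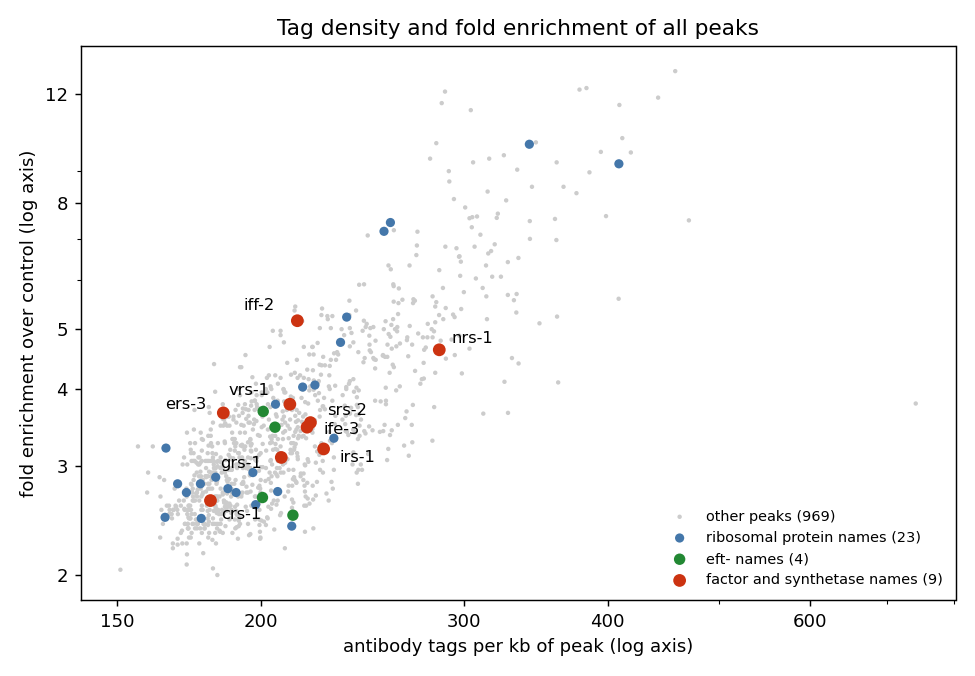
Fold enrichment over control (y, log axis) against antibody tags per kb of peak (x, log axis) for all 1005 peaks, 1 point per peak, with the 9 factor and synthetase peaks in red, 4 peaks with eft- names in green and 23 with ribosomal protein names in blue. The red points lie in the main body of the list between 2.64- and 5.16-fold, and nrs-1 stands furthest right among them at 285.6 tags per kb.

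The peak named for nrs-1, the asparaginyl-tRNA synthetase gene (nars-1 in current naming), was the strongest of the synthetases. It spanned 1691 bp (chromosome I, 7086707 to 7088397) and held 483 antibody tags (exact Poisson 95% interval 441 to 528, counting error only, as for all such intervals here). Its fold of 4.63 ranked 176 of 1005, its score of 430.81 ranked 171 and its 285.6 tags per kb ranked 91. The score was read as the caller's p-value as log10, with its sign turned, times 10. The peak carried a further name, nduf-6, a gene of respiratory complex I. In the gene table nduf-6 is the next protein-coding gene after nars-1, so the peak cannot be given to either gene alone. The nearest other peak, F22D6.2, ended 1.4 kb before it and held 2077 tags at 3.65-fold.

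The vrs-1 peak (valyl-tRNA synthetase, chromosome I, 13558806 to 13560533) followed at 3.78-fold and 366 tags (329 to 405), with a score of 236.52. Together with nrs-1 it made 2 of the 9 peaks with more than 1 name, beside 9.95% of all peaks. Its name needs care, because the gene called vars-1 in the gene table lies on chromosome V. The second name, Y87G2A.16, belongs to chromosome I, where its neighbour in the table is glp-4. That gene is known to encode a valyl-tRNA synthetase and to be needed for germline proliferation. Without the vrs-1 peak the median fold of the remaining 8 was 3.50.

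The ers-3 and srs-2 peaks had similar folds and very different lengths and tag counts. The ers-3 peak, a glutamyl-tRNA synthetase gene (ears-2 in current naming, chromosome IV, 389960 to 391000), reached 3.66-fold. It had the fewest tags of the 9 and was the shortest, with 193 tags (167 to 222) over 1041 bp. Its score of 60.33 ranked 895 of 1005. The srs-2 peak of a seryl-tRNA synthetase gene (chromosome IV, 10002742 to 10004676) reached 3.53-fold with 427 tags (387 to 469) and a score of 274.82. It was the longest of the 9 at 1935 bp. The intervals of these tag counts do not overlap, so the peaks differ in total tags by more than counting error. The totals were not adjusted for length, and per kb the peaks lay closer, at 185.4 tags for ers-3 and 220.7 for srs-2.

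The other 3 synthetase peaks lay below the median fold of all peaks. The irs-1 peak, at the isoleucyl-tRNA synthetase gene (iars-1; chromosome IV, 10368034 to 10369357), had 3.20-fold enrichment and 300 tags (267 to 336). The grs-1 peak, at the glycyl-tRNA synthetase gene (gars-1; chromosome III, 5162208 to 5163835), had 3.10-fold enrichment and 339 tags (304 to 377). The crs-1 peak, at the cysteinyl-tRNA synthetase gene (cars-1; chromosome I, 2627952 to 2629384), was the weakest of the 9 by fold, at 2.64 (rank 807 of 1005) with 259 tags (228 to 293). Its 180.7 tags per kb were also the lowest of the 9.

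Both structural classes of synthetase were present, with overlapping folds. The class I enzymes, for cysteine, valine, glutamate and isoleucine, had 4 peaks of 2.64- to 3.78-fold (median 3.43). The class II enzymes, for asparagine, glycine and serine, had 3 peaks of 3.10- to 4.63-fold (median 3.53). These values are a description and were not tested against each other.

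Of the 2 factor peaks, that of iff-2 had the highest fold of the 9, 5.16 (rank 116 of 1005; chromosome II, 8560783 to 8561875). iff-2 encodes eIF5A, a factor that carries the modified lysine hypusine and relieves stalled ribosomes. The iff-2 peak held few tags, 235 (206 to 267) over 1093 bp, and its score of 129.73 ranked only 518. By fold it exceeded the nrs-1 peak, and by score and tags it lay below it. The ife-3 peak (chromosome V, 8105 to 9555) had 3.47-fold enrichment, 318 tags (284 to 355) and a score of 201.75. ife-3 is an isoform of eIF4E, the factor that binds the mRNA cap. This was the first peak on chromosome V in the list.

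**Figure D2:**
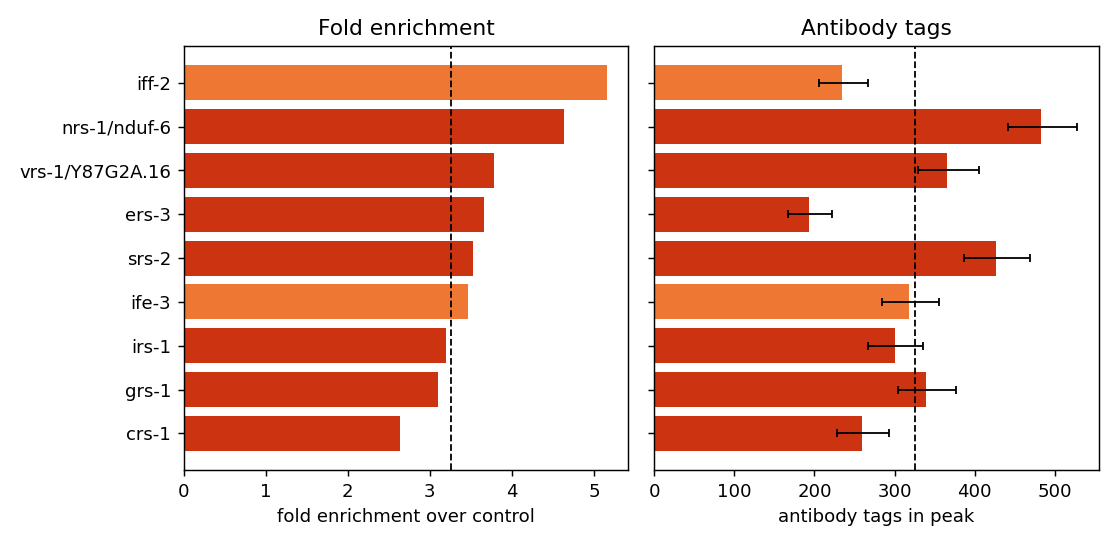
Fold enrichment over control (left) and antibody tags in the peak (right) for the 9 peaks, synthetases in red and factors in orange, with exact Poisson 95% intervals on the tags and dashed lines at the medians of all 1005 peaks (3.26 and 325). The order by fold is not the order by tags: iff-2 leads the left panel with 235 tags, and nrs-1 leads the right panel with 483.

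Across the 9 peaks tag density varied less than fold. Tags per kb differed by 1.58 times between the lowest and the highest peak, the fold by 1.95 times, the tag count by 2.50 times and the score by 7.14 times. Of the 9, 7 lay at or above the median density of all peaks (204.0 tags per kb), and 4 at or above the median length (1555 bp). None exceeded the upper quartile of length, 2286 bp. The caller's false discovery rate was between 5.52% (nrs-1) and 8.12% (grs-1), so none of the 9 was at 5% or less, a level that 3.18% of all peaks met.

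The summits sat near the middle in 4 of the 9 peaks. These were iff-2, ife-3, grs-1 and ers-3, in which the summit lay between 48% and 54.1% of the way along the peak. It lay furthest towards the start in srs-2, at 28.0%, and furthest towards the end in vrs-1, at 70.9%. Gene strand and genome sequence were not used here, so these offsets say nothing of promoter or gene body.

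**Figure D3:**
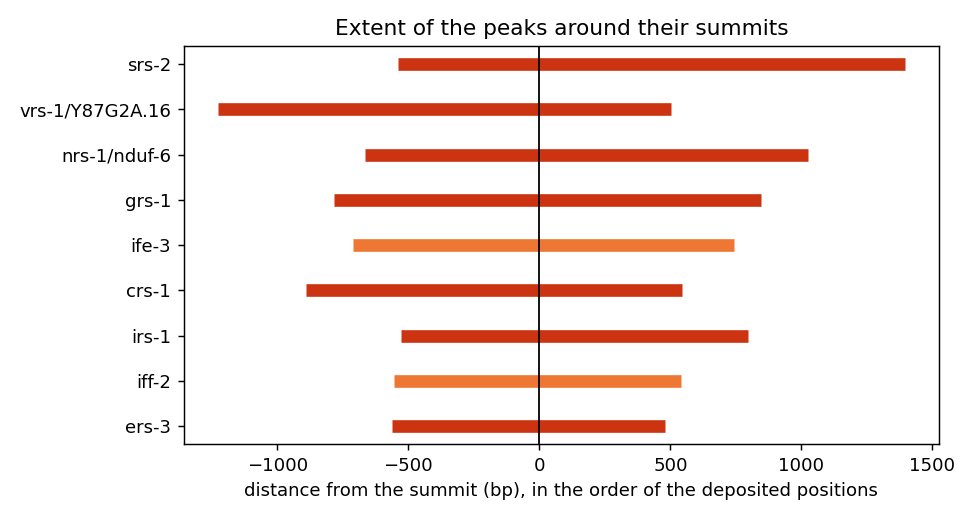
Extent of each of the 9 peaks in bp on either side of its summit (0), ordered by length from ers-3 (1041 bp) to srs-2 (1935 bp), synthetases in red and factors in orange. The srs-2 peak reaches 1394 bp to the right of its summit and the vrs-1 peak 1226 bp to the left, while ife-3 and iff-2 are nearly symmetric.

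Chromosomes I and IV carried 3 of the 9 peaks each, beside 179 and 165 of all 1005 peaks. Chromosomes II, III and V had 1 each, beside 139, 187 and 161, and X none, beside 174. In the gene table no synthetase gene under a current symbol lies on X. The eft-4 peak, read further on as the factor gene eef-1A.2, does lie there. Of the 7 synthetase peaks 6 had another peak of the list within 20 kb, beside 42.7% of all peaks, and the exception was srs-2 at 123.7 kb. Neither factor peak had one, with gaps of 146.5 kb for ife-3 and 179.8 kb for iff-2. The neighbours of the synthetase peaks ranged from a 2.51-fold peak at Y23H5A.2, 4.5 kb from crs-1, to a 6.23-fold peak at R11A8.7, 10.8 kb from irs-1. The ers-3 peak lay 3.9 kb from a 3.78-fold peak named pqbp-1.2 and rps-24, the latter a ribosomal protein gene. At grs-1 a 5.27-fold peak, K10D2.5, lay 7.6 kb away. These distances are all within the deposited list, and no test of them was made.

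Whether the names fit their places was checked by gene order. In the gene table the genes of crs-1, nrs-1, iff-2, grs-1, ers-3, irs-1 and ife-3 each lay between the genes named at the flanking peaks (or, for ife-3, before the next of them). So did sars-1 for srs-2, with sars-2, also on chromosome IV, outside that interval. The intervals held from 3 genes (crs-1) to 133 (srs-2) and 142 (iff-2), so the wide ones place a peak only roughly. Over all 743 peaks with 1 name that matched a gene on the peak's own chromosome, 99.6% were in such order. Names whose gene lies on another chromosome were dropped before this count. A misplaced flanking name also widens an interval, which makes the check easier to pass. The high share was therefore partly set in advance. For vrs-1 the check was not informative, because the flanking peak was named aex-1 and the interval to the next named gene spanned 1275 genes.

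The share of each family at peaks depended on how names were read. The gene table held 33 protein-coding synthetase genes under current symbols, serving all 20 amino acids. Of these, 6 (18.2%) matched an older name at a peak on their own chromosome, and with glp-4 counted 7 of 34 (20.6%) did. Over all protein-coding genes 4.52% were named at a peak by current symbol or locus name, and 4.57% with the older names of factors and synthetases added. No peak carried a synthetase name for the other 13 amino acids, among them alanine, arginine, leucine, lysine and tryptophan. Older names of other genes were not matched in the all-gene share, which is therefore somewhat low. Of 39 translation factor genes, 2 (5.13%) were at peaks by the symbols that defined the set, near the share of all genes.

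Elongation factor genes were named at peaks under older or locus names. With these counted, a reading chosen after the list was seen, 9 of 39 factor genes (23.1%) were at peaks, beside 4.57% of all protein-coding genes, and 4 of the 6 eEF1 and eEF2 genes were among them. The peak named eft-2, the gene of elongation factor 2 (eef-2), was long at 4813 bp and held 965 tags (905 to 1028). It was only 2.67-fold enriched, and its 200.5 tags per kb lay just below the median of all peaks, 204.0. The peaks named eft-3 and eft-4 are read as the eEF1A genes eef-1A.1 and eef-1A.2, whose product carries charged transfer RNA to the ribosome. They had 2.50-fold (526 tags) and 3.47-fold (699 tags). These genes are near-identical copies, so tags could be placed at either and their values are uncertain.

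The remaining factor genes had smaller peaks. eef-1G, the gamma subunit of the eEF1 exchange complex, was listed by its locus name F17C11.9 at 5.02-fold and 394 tags. eif-1.A, an initiation factor that helps find the start codon, was listed as H06H21.3 at 3.10-fold and 381 tags. eif-2A, listed as E04D5.1, had 3.36-fold and 266 tags. eif-2Bgamma, a subunit of the exchange factor that reloads eIF2, was listed by its older name ppp-1 at 3.27-fold and 205 tags, at a peak shared with C15F1.5 (chromosome II, 6967868 to 6968944). A further peak named eft-1 (3.68-fold, 210 tags) could not be tied to a gene, because the splicing factor gene eftu-2, the candidate, lay outside the interval set by its flanking peaks. For the eIF2 and eIF2B subunits, eif-2Bgamma was the 1 gene of 8 that was matched to a peak. None of the 11 eIF3 subunit genes with eif-3. symbols (B to L), nor ifg-1, the eIF4G scaffold gene, was matched by current symbol, locus name or the older names tried. Any eIF3 subunit gene under another symbol was not counted.

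**Figure D4:**
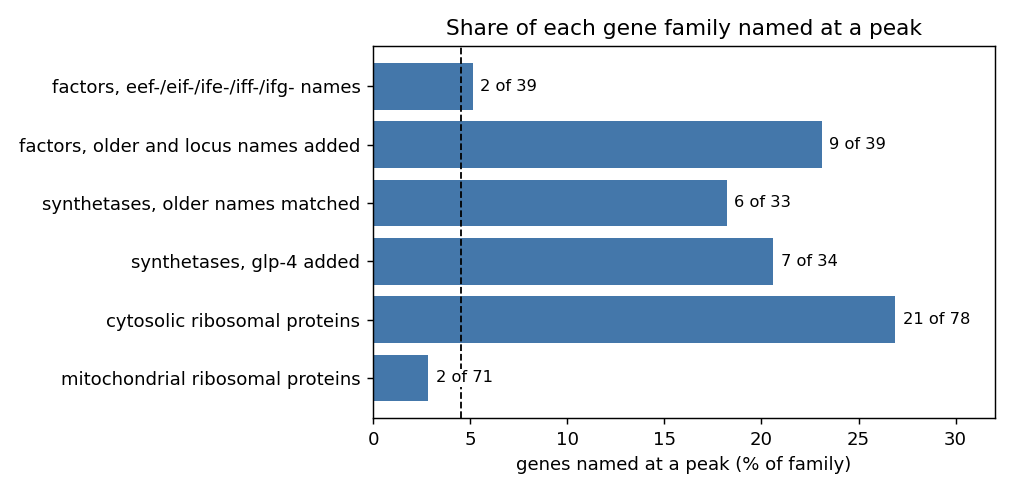
Percentage of the protein-coding genes of each family that were named at a peak, with counts beside the bars and a dashed line at 4.52%, the share of all protein-coding genes. Synthetases stand at 6 of 33 (7 of 34 with glp-4), factors at 2 of 39 by the defining symbols and 9 of 39 with older and locus names, cytosolic ribosomal proteins at 21 of 78 and mitochondrial ribosomal proteins at 2 of 71.

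The peaks named eft-2, eft-3 and eft-4 were 4813, 2468 and 3400 bp long, longer than any of the 9 factor and synthetase peaks, while the eft-1 peak had only 1046 bp. Over these 4 the median fold was 3.07, beside 3.53 for the 9. The 23 peaks with ribosomal protein names had a median fold of 2.93 and a wider range, 2.40 to 9.96, and 21.7% of them reached 5-fold. No test of these differences was made.

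Other genes that regulate or assist translation were counted from lists drawn up by role, with earlier results of these data known, so their counts are a description. Of 44 genes given in 7 lists, 36 were in the gene table, and 11 of these (30.6%) were at peaks, beside 4.57% of all protein-coding genes. The choice of genes can by itself raise the first share, so these shares are not like for like. The eIF2 kinases and their regulators had 3 of 5, with eif-2Bgamma, described above, among them. Another was pek-1, the endoplasmic reticulum eIF2 kinase, at 9.68-fold and 708 tags (chromosome X, 11414194 to 11415987). Its score of 1338.88 ranked 38 of 1005, while its false discovery rate was 10.26%. The remaining gene was gcn-1, the activator of the kinase GCN-2, listed as Y48G9A.3 at 3.39-fold and 478 tags. gcn-2 itself was not named at a peak.

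Partners of the mRNA cap and the poly(A) tail had 4 of 6 genes at peaks. pab-2, a poly(A)-binding protein gene, had the highest fold of these at 8.35, with 2258 tags over 7178 bp and a false discovery rate of 3.12%, at a peak whose label also held a question mark in place of a second name. The others were larp-1, an RNA-binding regulator of ribosomal protein mRNAs in mammals (3.52-fold, peak shared with wip-1), drr-2, a homologue of eIF4H (3.51-fold, shared with set-16) and cgh-1, a DEAD-box helicase of stored mRNAs (2.81-fold). Of 8 mitochondrial translation factor genes given, only 4 were found in the gene table, and 2 of these had a peak. The others given were not examined. The peaks were those of tufm-1, the mitochondrial EF-Tu, at 4.51-fold and 686 tags, and of gfm-1, the mitochondrial elongation factor G. The latter was listed as F29C12.4 at 3.23-fold and 403 tags.

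The remaining lists had few peaks or none. In the TOR kinase pathway 1 of 7 genes was named, the S6 kinase gene rsks-1 (2.47-fold, 229 tags). In the list drawn up for termination and ribosome recycling it was also 1 of 7, abcf-2 (5.19-fold, 258 tags, peak shared with cua-1). A role of abcf-2 in those steps was not checked. None of the 5 genes of eEF2 kinase and diphthamide synthesis was named at a peak, and neither of the 2 hypusine enzyme genes was, although iff-2, whose product they modify, was.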

How the data were processed

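Per the file headers, the authors called peaks with MACS 1.4.2, taking the antibody library as treatment against the library made without antibody. The effective genome size was 90000000 bp, the p cutoff 1e-05, the fragment size 200 bp and the limit 1 tag per position, and the larger library was scaled towards the smaller. Per the submitters' processing notes, BWA 0.7.5, Picard and MACS 1.4 were used. The build of the genome and the naming of genes at peaks are not given in the sources used here. Duplicate removal took 40.0% of antibody and 20.3% of control tags. The deposited list gives tag counts, a fold (ratio) over control, a score whose heading was lost, and a false discovery rate in percent; all of these are the authors' values and only describe or rank peaks within the list. The score was identified by where the caller writes it and by its smallest value, 50.06.

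Names were matched with Python 3.11.15 to the RefSeq gene table of WBcel235, used for names, chromosomes and gene order only, and intervals were computed with scipy 1.17.1. Older synthetase names, eft- names and ppp-1 were matched to current symbols by hand. List members absent from the table (8 of 44) were dropped. Every peak found by the name rule is named, as are listed pathway genes at a peak. Members and lists were chosen with earlier results of these data known. The name rule was tried on typed example names, the gene-order check on a simulated chromosome and ranking on a short known list. The matching of names to genes was not tested. Alternatives were stricter peaks, peaks with 1 name, chromosome-matched names, current symbols, 4-fold, and older-name, locus-name and glp-4 readings.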

Additional observations from a re-analysis of the deposited data

How the results depend on the processing

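No paired analysis was possible because the comparison rests on 1 library a side; for that reason none was left out. Of 27 recomputed values 16 stayed within 1.5 times the count, or within the binomial 95% interval of the median fold (3.10 to 4.63). That interval is over the 9 peaks, which are not replicates, and the alternatives mostly reuse the same peaks. Limiting the list to peaks from its median fold upwards could not change the count at 5-fold. The tally is therefore no independent check. The median fold stayed between 3.47 and 3.72 wherever a member peak remained. Synthetase names at peaks fell from 7 to 4 when the list was limited to peaks from its median fold or its median score upwards. Factor names went from 2 to 1 and peaks at 5-fold from 1 to 0 in the upper part by score, because iff-2 dropped out. Where the false discovery rate had to be at most 5%, all 3 counts (synthetases, factors, peaks at 5-fold) were 0, and no median fold could be given. Synthetases were at 0 with current symbols only, because the list uses older names. With 4-fold in place of 5-fold, 2 peaks passed, beside 26.4% of all peaks. Factor genes rose to 5 with eft- names and to 9 with ppp-1 and locus names as well, both chosen after seeing the data, as was the glp-4 reading. Depth was not varied, so its effect on weak peaks, such as that of ers-3 with 193 tags, was not tested.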
